A study of Mus musculus with 4 samples.

Results

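Genes that mark the stem cells and the outer root sheath of the hair follicle were followed in skin cells of mouse pups with and without induction of the microRNA miR-203. The 9 genes are the transcription factors Sox9, Lhx2, Nfatc1, Tcf7l1 and Tbx1, the receptors Lgr5 and Lgr6, the transmembrane protein Lrig1 and the surface glycoprotein Cd34. They were found by symbol and gene identifier among the probe sets annotated to exactly 1 gene, which gave 20 of the 45037 probe sets analysed. Tcf7l1 was once called Tcf3, and the 3 probe sets that carry the symbol Tcf3 in the annotation used here belong to another gene by identifier and were left out.

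Each of 4 samples was read on its own Affymetrix array, and every value below is a deposited log2 value from RMA, which corrects background, normalizes between arrays and summarises the probes of a set. The 2 induced samples came from pups with the genotype K14-rtTA/TRE-miR-203/K14-H2BGFP, in which a keratin 14 promoter drives the doxycycline-dependent activator rtTA, the activator's target promoter (TRE) carries miR-203, and a second keratin 14 promoter drives a nuclear green fluorescent protein. The 2 controls came from littermates with TRE-miR-203/K14-H2BGFP, labelled WT, which carry the same miR-203 and reporter transgenes without the activator. All pups were of the FVB background and 4 days old (P4), and cells were sorted 24 h after doxycycline was injected. The sorting gate and the number of pups behind each RNA were not given in the sources used here. The activator is present in 1 group only, so effects of rtTA and of miR-203 cannot be told apart. The keratin 14 promoter is active in basal keratinocytes and in the outer root sheath, so that the cells described here are among those in which the transgene can act. The labels call the samples biological replicates, and with 2 per group how few there are limits how precisely any value is known.

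The hair follicle grows down from the epidermis, and its outermost epithelial layer, the outer root sheath, is continuous with the basal layer of the epidermis. Stem cells of the mature follicle sit in a bulge of that sheath, and their precursors are set aside during follicle formation, before the first hair cycle is complete. SOX9, LHX2, TCF7L1, NFATC1 and TBX1 are transcription factors of these cells, whereas Lgr5 marks the lower bulge and hair germ, Lgr6 the isthmus above the bulge, and Lrig1 the junctional zone towards the sebaceous gland. The microRNA that was induced acts through its seed, bases 2 to 8, with which it pairs to messenger RNAs. The 3p arm, the strand usually meant by miR-203, is shown because the labels name miR-203 as induced, with the seed in capitals. It lies at chr12:112130927-112130948 on the plus strand of GRCm38.p6, and the sequence is RefSeq's.
mmu-miR-203-3p: gUGAAAUGuuuaggaccacuag

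The arrays as a whole were alike, with Pearson's r of 0.995 between the controls, 0.994 between the induced arrays and 0.991 to 0.993 between groups across the 27022 probe sets at or above the filter level. That level was a mean of 4.17 over the 4 arrays. The basal keratins Krt5 and Krt14 read between 13.61 and 14.13 on every array, so keratinocytes were present in each sample. Induced replicate 1 stood apart in transcripts of the sex chromosomes: its value for Xist, the RNA of the inactive X chromosome, was 5.86 against 10.57 to 11.19 on the other arrays, and its value for the Y-linked Eif2s3y was 9.38 against 2.52 to 2.82. The values of the 9 genes are therefore given array by array, whereas most genes of the other lists are given as differences of group means.

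Of the 9 genes, 8 could be tested and 0 passed the test between induced and control arrays. The main pattern in their values was a difference between the 2 induced arrays. Both induced arrays read higher than both controls for Sox9 in both of its probe sets above the filter level, by 0.31 and 0.41 on the log2 scale. Tcf7l1 did so in 1 of 2 probe sets. Lhx2, Lgr5, Lrig1 and Nfatc1 had both controls lying between a low induced replicate 1 and a high induced replicate 2. Cd34 lay below the filter level on all arrays. In bulk samples such as these, fewer cells of a type and less RNA per cell cannot be told apart.

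Of the 20 probe sets, 17 were above the filter level and stood for 8 of the 9 genes. In limma 0 of the 17 had a Benjamini-Hochberg adjusted p under 0.05, the lowest being 0.426, against 0% of all 27022 probe sets, among which the lowest was 0.158. Before adjustment 1 of the 17, a Sox9 probe set, had a p under 0.05, as did 10.1% of all probe sets tested. With each gene represented by its brightest probe set, 2 of the 8 genes had groups that did not overlap, both higher in the induced arrays, where 39.4% of all 13489 named genes did so in either direction and 20.1% in that direction. The median difference over the 8 genes was 0.10, with 6 positive and 2 negative, and over all named genes it was -0.00. A share and a median of this kind describe the list and do not test it.

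**Figure D1:**
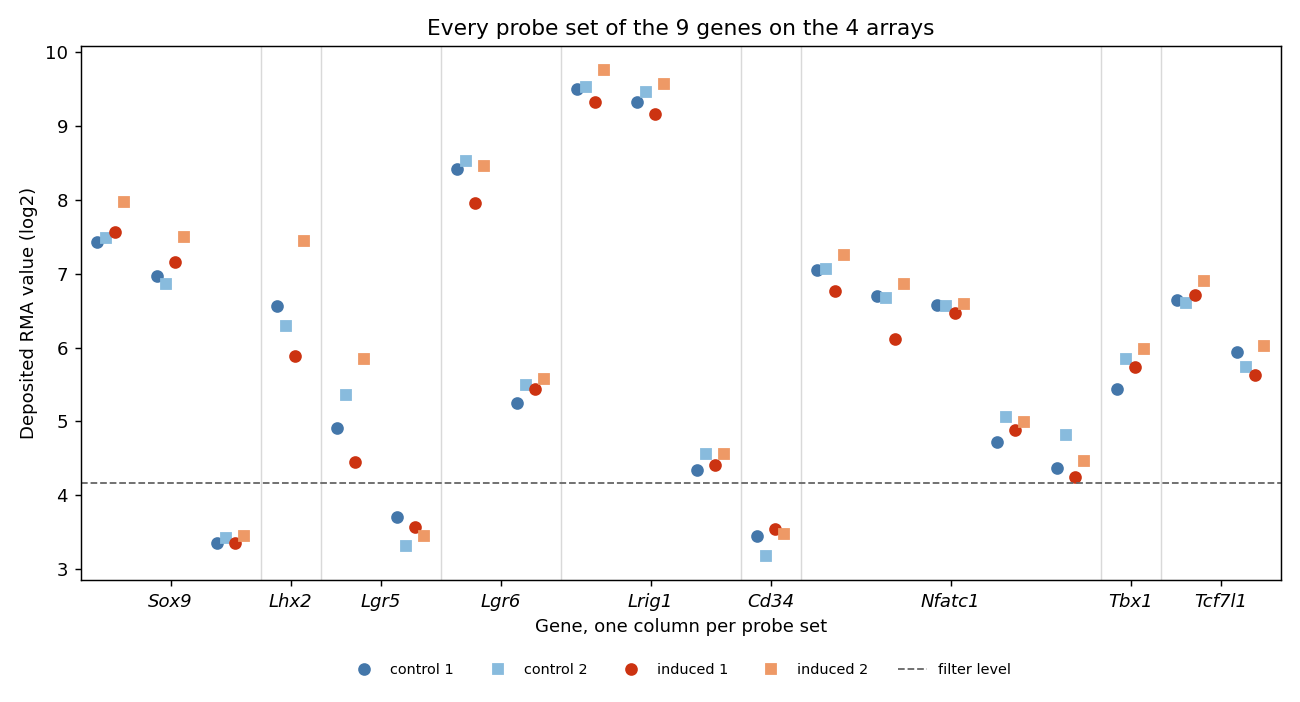
Deposited log2 values (vertical axis) of every probe set of the 9 genes, 1 column per probe set from bright to dim within a gene, with blue points for controls, red and orange points for induced arrays, and a dashed line at the filter level of 4.17. In all 17 probe sets above that level, induced replicate 2 (orange) lies above induced replicate 1 (red).

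Among the transcription factors, Sox9, which is needed to specify the outer root sheath and the early stem cells, was measured by 3 probe sets. The brightest (1451538_at) read 7.43 and 7.48 on the control arrays and 7.56 and 7.97 after induction. Both induced values were above both controls, induced replicate 1 by 0.08 and 0.14 and induced replicate 2 by 0.49 and 0.55. The difference of the means was 0.31 ± 0.15 (moderated SE from limma, n = 2 and 2, 1.24-fold) with a 95% interval of -0.06 to 0.69 and an adjusted p of 0.572 in limma. The next probe set (1424950_at) read 6.97 and 6.87 on the control arrays and 7.16 and 7.50 after induction. Again the groups did not overlap, with a difference of 0.41 ± 0.14 (1.33-fold), an interval of 0.06 to 0.76, an unadjusted p of 0.028 and an adjusted p of 0.426 in limma. The third probe set (1433889_at) was dim on all arrays, from 3.35 to 3.44, and was not tested. An exact two-sided permutation test of 2 against 2 arrays cannot go below 0.333, the value it gave for both brighter Sox9 probe sets. Without induced replicate 1 the difference of the brightest probe set was 0.52, and without induced replicate 2 it was 0.11.

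Lhx2, a LIM homeodomain factor that maintains bulge cells, had 1 probe set, which read 6.57 and 6.29 on the control arrays and 5.88 and 7.44 after induction. The induced arrays were the lowest and the highest of the 4, 1.56 apart (2.94-fold), where the controls differed by 0.27. The difference of the group means, 0.23 ± 0.47 (adjusted p = 0.939 in limma), had an interval of -0.93 to 1.40, and its sign turned with the array left out: -0.54 without induced replicate 2 and 1.01 without induced replicate 1. Whether Lhx2 messenger RNA rises or falls with induction is therefore not decided by these arrays.

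Nfatc1, a calcineurin-dependent factor that keeps bulge cells quiescent, had 5 probe sets above the filter level, and all 5 had overlapping groups. The brightest (1417621_at) read 7.06 and 7.07 on the control arrays and 6.77 and 7.25 after induction. The controls lay 0.01 apart and the induced arrays 0.48 apart, on either side of them, and the difference of the means was -0.05 ± 0.17 (interval -0.47 to 0.37, adjusted p = 0.969 in limma). The next probe set (1428479_at) repeated the arrangement at 6.71 and 6.67 against 6.12 and 6.86. The third (1425761_a_at) did so within a narrower span, 6.58 and 6.57 against 6.46 and 6.60. The remaining pair, 1447084_at and 1447085_s_at, lay near the filter level (4.24 to 5.05), and control replicate 2 was their highest array. The mark _s_at is Affymetrix's for sets whose probes may match more than 1 transcript. The sign of the brightest probe set turned to 0.19 without induced replicate 1, and was -0.29 without induced replicate 2.

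Tcf7l1, a repressor of Wnt target genes in the outer root sheath and bulge, read 6.64 and 6.60 on the control arrays and 6.71 and 6.90 after induction in its brighter probe set (1436207_at). Both induced values lay above both controls, by 0.07 to 0.30. The difference was 0.18 ± 0.11 (1.14-fold; interval -0.08 to 0.45, adjusted p = 0.646 in limma). Its dimmer probe set (1450117_at) read 5.94 and 5.74 against 5.63 and 6.03, with a difference of -0.01 ± 0.16. The separation of the groups was thus seen by 1 of the 2 probe sets.

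Tbx1, a T-box factor of bulge stem cells, read 5.44 and 5.84 on the control arrays and 5.74 and 5.98 after induction. Here the controls were farther apart (0.41) than the induced arrays (0.24), and induced replicate 1 fell between the controls. The difference was 0.22 ± 0.17 with an interval of -0.19 to 0.64 (adjusted p = 0.731 in limma).

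Of the receptors, Lgr5 and Lgr6 encode related leucine-rich repeat receptors for R-spondins, ligands that strengthen Wnt signalling. Lgr5 read 4.91 and 5.36 on the control arrays and 4.45 and 5.84 after induction (1450988_at). As for Lhx2, the induced arrays were the lowest and the highest, 1.39 apart (2.62-fold) against 0.45 between the controls. The difference of the means was 0.01 ± 0.44 with an interval of -1.07 to 1.09 (adjusted p = 1 in limma), and it was -0.69 without induced replicate 2 and 0.70 without induced replicate 1. It also turned negative without control replicate 1 (-0.22) and after a second quantile normalization (-0.02). The second Lgr5 probe set (1444519_at) lay below the filter level, at 3.31 to 3.70.

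Lgr6 read 8.42 and 8.53 on the control arrays and 7.97 and 8.47 after induction (1436218_at). Induced replicate 1 was the low array, and induced replicate 2 lay between the controls. The difference was -0.26 ± 0.18 (1.2-fold lower; interval -0.70 to 0.18, adjusted p = 0.701 in limma), and it was -0.01 without induced replicate 1 and -0.51 without induced replicate 2. The dimmer probe set (1427028_at) had the opposite sign, at 5.24 and 5.49 against 5.44 and 5.58 (0.14 ± 0.12). Lgr6 had the lowest difference of the 8 genes, and the direction was not shared by its probe sets.

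Lrig1, a transmembrane inhibitor of ErbB receptors that restrains stem cell division, was read by 3 probe sets. The brightest (1449893_a_at) gave 9.51 and 9.54 on the control arrays and 9.33 and 9.76 after induction. The controls lay 0.03 apart, between induced arrays 0.43 apart. The difference of the means was 0.02 ± 0.16, with an interval of -0.37 to 0.41 (adjusted p = 0.989 in limma), and it turned to -0.19 without induced replicate 2 and was 0.23 without induced replicate 1. The next (1434210_s_at) repeated the pattern at 9.32 and 9.46 against 9.16 and 9.57. The third (1419928_at) lay just above the filter level at 4.34 to 4.56.

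Cd34, a sialomucin of bulge cells in the mature follicle and of endothelial and blood progenitor cells, read 3.44 and 3.17 on the control arrays and 3.54 and 3.48 after induction. Both induced values were above both controls by 0.03 to 0.36, but all 4 values lay below the filter level, so the gene was not tested and no fold is given. In the growing follicles of pups this marker of the mature bulge is known to come up late. The part of that timing in these low values was not tested. Of 10 endothelial marker genes, 6 were also below the filter level, among them Pecam1 and Cdh5.

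**Figure D2:**
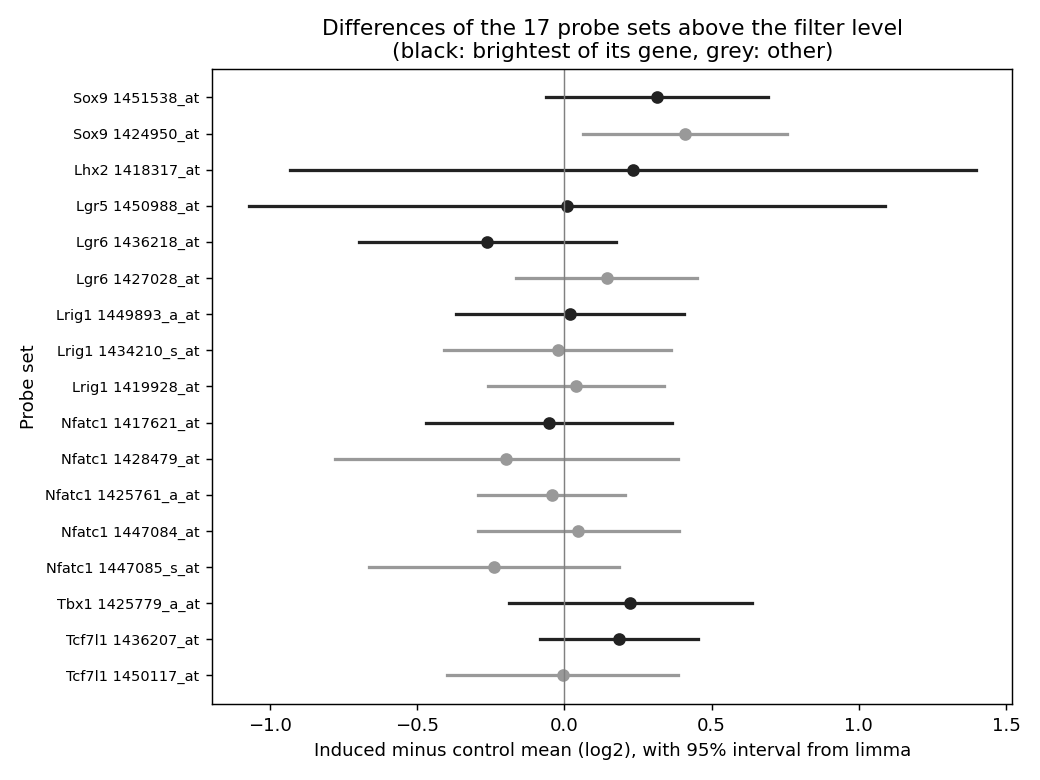
Induced minus control mean (horizontal axis, log2) of the 17 probe sets above the filter level, with the 95% interval from limma as a line, black for the brightest probe set of a gene and grey for others. The intervals of Lhx2 (-0.93 to 1.40) and Lgr5 (-1.07 to 1.09) are the widest, and that of 1 Sox9 probe set (0.06 to 0.76) is the only one that does not reach 0, before adjustment.

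The induced arrays differed from each other by more than the controls did in 7 of the 8 genes, Tbx1 being the exception. The controls were also farther apart in dim probe sets of Lgr6, Lrig1 and Nfatc1. Induced replicate 2 was above induced replicate 1 in 17 of 17 probe sets and 8 of 8 genes, where 51.9% of all probe sets and 53.3% of all named genes were ordered that way; control replicate 2 was above control replicate 1 in 11 of the 17. The gap between the induced arrays had a median of 0.46 over the 8 genes against 0.09 for the gap between the controls, while over all named genes these medians were 0.11 and 0.12. It reached at least 0.4 in 6 of the 8 genes and in 6.17% of all named genes, 0.4 being a limit chosen after the values were seen. Both controls lay between the induced arrays in 4 of the 8 genes, each with induced replicate 2 the highest, against 13.9% of all named genes in either order and 7.53% in that order. With 1 array behind each value there is no test of a difference between 2 replicates, and probe sets of 1 gene are not independent. The low array, induced replicate 1, is the one with Y-linked transcripts, and the part of sex in the gap was not tested.

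**Figure D3:**
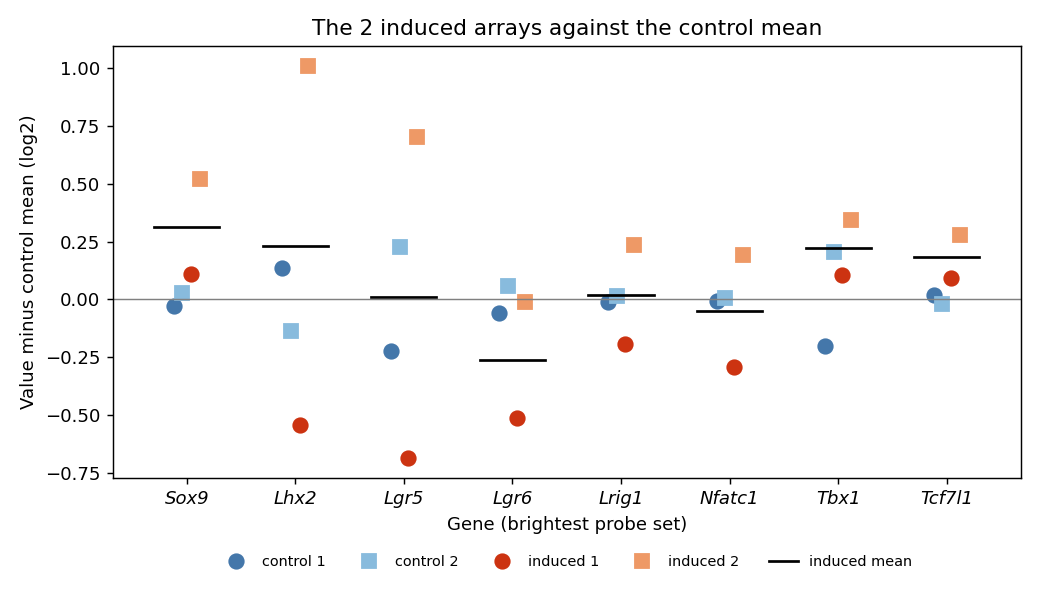
Each array's value minus the control mean (vertical axis, log2) for the brightest probe set of the 8 genes above the filter level, with circles for replicate 1, squares for replicate 2 and a black bar at the induced mean. Lhx2 and Lgr5 span the most, with induced replicate 1 lowest and induced replicate 2 highest, whereas both induced points of Sox9 and Tcf7l1 are above both controls.

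The genes most like a member were sought among 1640 named genes that ranged over at least 0.5 on the 4 arrays, by the root mean square difference of the 4 values after centring. Nearest to Sox9 were Ppp2r1b, Slc45a3 and Tet2 (0.02 each). Nearest to Lgr5 were Col3a1, a collagen of the dermis (0.10), Creb5 (0.11) and the proteoglycan gene Bgn (0.12). Nearest to Lhx2 were Basp1 (0.18), the proteoglycan gene Vcan and the basement membrane collagen gene Col4a1 (0.19 each). Nearest to Lgr6 were the condensin gene Ncapd2 (0.02), Pax1 (0.03) and Sertad4 (0.04), and nearest to Tbx1 were Ccl17 (0.02), Rflna and Nobox (0.03 each). Over 4 arrays such nearness is easily met, and it is given as a description.

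Other genes of the bulge and outer root sheath gave a mixed picture. Of 16 measured, 0 passed the test, 10 had a positive and 6 a negative difference, and the median was 0.04. Without overlap between groups 4 were higher and 3 lower, where 39.4% of all named genes did not overlap in either direction. Krt15, a keratin of bulge and basal cells, differed by -0.33 ± 0.10 and the basement membrane collagen gene Col18a1 by -0.28 ± 0.10, both lower in both induced arrays. The transcription factor gene Foxp1 (0.37 ± 0.13) and the matrix protein gene Tnc (0.35 ± 0.13) were higher in both. Adjusted p values of these 4 ran from 0.373 (Krt15) to 0.477 (Tnc) in limma. The 5 measured genes of the upper follicle and infundibulum, Plet1, Defb6, Gata6, Cst6 and Krt79, had a median of 0.03, with Plet1 at 0.12 ± 0.11, and 0 passed.

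The partners and paralogs of the 9 genes were measured as lists, and 0 genes passed in any of them. For the R-spondin receptors 6 of 9 listed genes were measured, with a median of -0.00: Lgr4, the third receptor of the family, read 8.54 and 8.57 against 8.65 and 8.94 (0.24 ± 0.13). The co-receptors Lrp6 and Lrp5 differed by -0.11 ± 0.11 and -0.10 ± 0.13, and Rnf43, a ubiquitin ligase that the R-spondins counteract, by 0.12 ± 0.12. Among LRIG paralogs and ErbB receptors, the targets of Lrig1, 5 were measured with a median of 0.17. Erbb3 differed by 0.38 ± 0.14, Erbb2 by 0.23 ± 0.12, Lrig2 by 0.17 ± 0.12 and Egfr by -0.01 ± 0.12. Of 7 TCF/LEF relatives and beta-catenin partners (median -0.00), Ctnnb1, the beta-catenin gene, differed by -0.29 ± 0.10, and the Groucho co-repressor genes Tle4, Tle3 and Tle1 by 0.23 ± 0.10, 0.22 ± 0.11 and -0.14 ± 0.10. Of 8 NFAT and calcineurin genes (median 0.02), Nfatc3 differed by -0.21 ± 0.10, Nfatc4 by 0.09 ± 0.14, Nfat5 by 0.07 ± 0.12 and Rcan1, a calcineurin inhibitor induced by NFAT, by 0.07 ± 0.09. Sox8 was below the filter level, and Ldb1, the cofactor of LIM homeodomain factors such as LHX2, differed by 0.16 ± 0.10. In the same list Lmo4 differed by 0.18 ± 0.14, Lhx9 by -0.14 ± 0.10 and Sox10 by -0.06 ± 0.10. The adjusted p of the genes named in these lists was at least 0.414 (Ctnnb1) in limma. Another kept probe set had the opposite sign for Lrp6, Lrig2, Egfr, Tle1 and Nfatc4, as for Plet1 above.

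The outer sheath and stem cell genes can be set beside the inner layers of the same follicles. For inner sheath and hair shaft genes 13 of 13 measured had a positive difference, 11 of them higher without overlap between groups (20.1% of all named genes were), with a median of 0.84 and 0 past the test. Foxn1, a transcription factor of the hair shaft lineage, differed by 0.79 ± 0.11, the peptidylarginine deiminase gene Padi3 by 1.01 ± 0.16, and the inner sheath keratin genes Krt27 and Krt71 by 0.84 ± 0.15 and 0.90 ± 0.18. Each array's median over these 13 genes, relative to the control mean, was 0.61 and 0.95 in the induced arrays, both above the controls (-0.18 and 0.18). Over the 8 stem and outer sheath genes it was -0.24 and 0.31, on either side of the controls (-0.02 and 0.02). The difference between the lists was not tested, and both lists were chosen with earlier results of these data known. Induced replicate 2 was above induced replicate 1 in 11 of the 13 inner sheath and hair shaft genes as well. The same order held in 11 of the 16 other bulge and outer root sheath genes and 5 of the 5 upper follicle genes. It held in 6 of the 7 TCF/LEF relatives and beta-catenin partners, 4 of the 6 R-spondin receptor genes and 2 of the 8 NFAT and calcineurin genes. The count was 3 of 5 for the LRIG paralogs and ErbB receptors and for the list with Ldb1 and Lmo4. It was also 3 of 5 for the outer root sheath and companion layer keratins, beside 53.3% of all named genes. Outer root sheath and companion layer keratins were divided, with Krt6a (0.66 ± 0.11), Krt75 (0.98 ± 0.20) and Krt6b (1.36 ± 0.36) higher in both induced arrays and Krt16 (-0.18 ± 0.14) and Krt17 (-0.02 ± 0.14) overlapping, at adjusted p values of at least 0.201 in limma. The induced arrays of Krt6b lay 0.97 apart, replicate 1 at 9.77 and replicate 2 at 8.79. Hair germ and matrix progenitor genes had 5 positive and 6 negative differences among 11 (median -0.01), with Sostdc1, a BMP and Wnt antagonist, lower in both induced arrays (-0.83 ± 0.12), Msx2 higher (0.70 ± 0.20), Cdh3 lower (-0.34 ± 0.17) and Wnt10b at 0.07 ± 0.10. Of these 11 genes 2 were higher and 2 lower without overlap between groups, and in 10 induced replicate 2 was above induced replicate 1. Shh, the hedgehog ligand gene of the follicle, read 7.05 and 6.52 against 5.91 and 7.45, and its target Gli1 read 5.73 and 5.37 against 4.80 and 5.96. Both had the arrangement of Lhx2 and Lgr5, and were chosen after their values were seen. They were not alone, as both controls lay between the induced arrays in 5 of the 11 genes of that list, against 13.9% of all named genes.

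Markers of other cells were followed for the same gap. All 7 melanocyte genes were higher in induced replicate 2 than in induced replicate 1, and their summed unlogged level was 4108 and 4284 in the controls against 3747 and 5696. Dermal fibroblast genes were above the filter level for 4 of 8, with Col1a1, Pdgfra, Lum and Dpt below it. Of those 4, 3 were higher in induced replicate 2, and the summed level of all 4 was 389 and 377 in the controls against 266 and 475. That sum is weighted towards Dcn, the brightest of the 4, which read 8.23 and 8.04 against 7.57 and 8.42. Col3a1 read 4.95 and 5.56 against 4.54 and 6.13, and Col1a2 5.29 and 5.43 against 4.97 and 5.38. Twist2 went the other way, at 4.29 and 4.50 against 4.47 and 4.39. Of 5 dermal papilla genes Alx4 alone was above the filter level. Of 7 basal keratinocyte genes, 5 were lower in both induced arrays, as were 2602 of all 13489 named genes, and 0 passed the test. Induced replicate 2 was above induced replicate 1 in 4 of the 7, with sums of 35163 and 35393 in the controls against 31928 and 31129. Induced replicate 2 was the higher in 0 of 7 suprabasal, 0 of 4 immune cell and 1 of 4 endothelial genes. The median of induced replicate 2 minus induced replicate 1 was -0.03, -0.44 and -0.10 in these lists. For melanocyte and dermal fibroblast genes it was 0.61 and 0.63. The suprabasal gap was thus slight. Of 8 immune cell genes 4 were below the filter level, and the endothelial genes Cldn5 and Sox18 read near it. The summed level of the 4 immune cell genes was 1572 and 1301 in the controls against 1706 and 1181, and that of the 4 endothelial genes was 136 and 149 against 133 and 122. The part of these other cells in the gap was not tested.

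**Figure D4:**
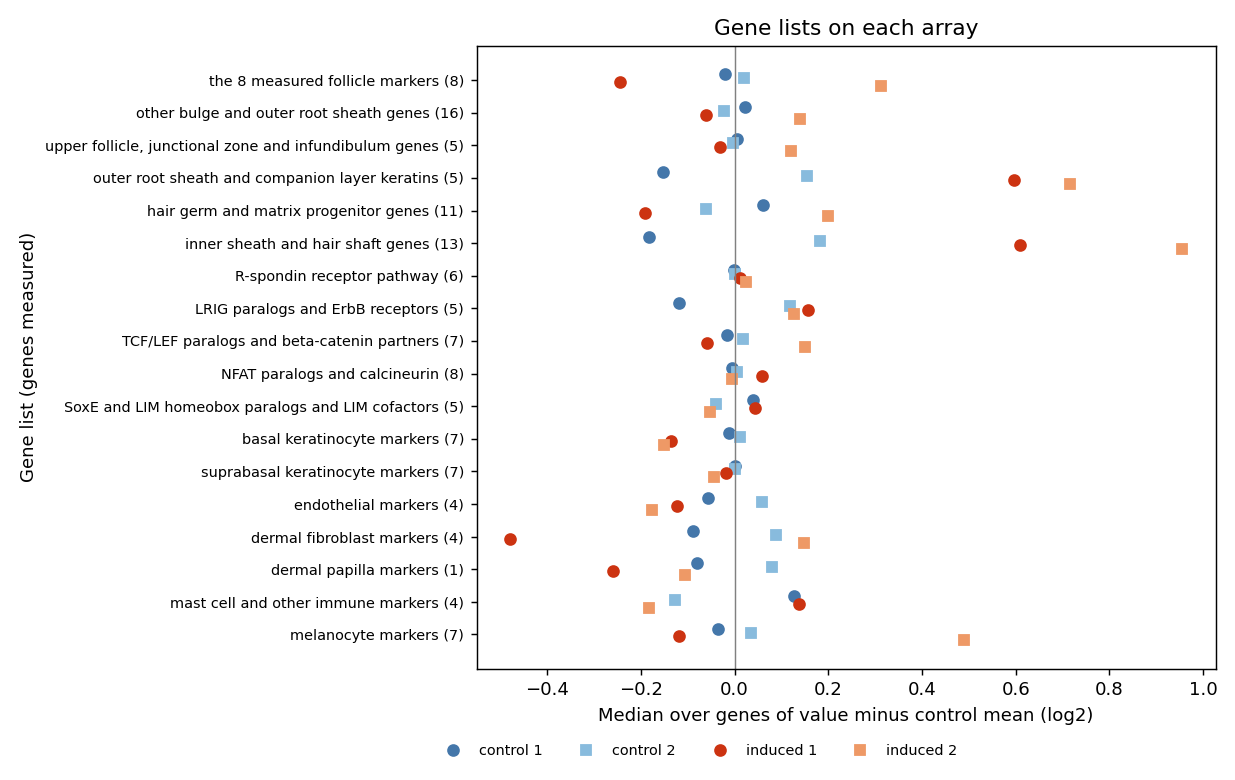
Median over the genes of each list of the value minus the control mean (horizontal axis, log2) on each array, with the number of genes measured in brackets. Induced replicate 1 (red circle) and induced replicate 2 (orange square) part to either side of the controls for the 8 follicle markers (-0.24 and 0.31). Both lie above the controls for the inner sheath and hair shaft genes (0.61 and 0.95), with replicate 2 again the higher.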

How the data were processed

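Messenger RNA was measured in 2 control and 2 induced samples. The deposited values are log2 values per probe set that the authors made with RMA, per the submitters' processing notes; its version and the chip definition were not given in the sources used here. The table held 45101 probe sets, of which 64 control probe sets were left out. Gene names came from the platform annotation, updated by gene identifier to the RefSeq table of GRCm38.p6 (34945 probe sets with 1 gene, 932 with several, 9160 not listed); no array build is named, so no gene coordinates are given. The filter removed probe sets whose mean fell under the 40th percentile (4.17) and left 27022, and a gene was represented by its brightest kept probe set. The 2 groups were fitted with lmFit and eBayes (limma 3.58.1, R 4.3.3), two-sided, with Benjamini-Hochberg adjustment over all kept probe sets and 2 residual degrees of freedom. The test was tried on 20 simulated data sets with 200 changed probe sets each. It recovered 2.61% of 1.5-fold, 62.9% of 2-fold and 98.0% of 4-fold changes, with a mean of 6.45 false calls. Changes of 1.5-fold or less would thus seldom pass it. These shares are averages over simulated probe sets. They need not hold for genes with widely spaced arrays such as Lhx2 and Lgr5, whose moderated standard errors were 0.47 and 0.44. Values after ± are limma's moderated standard errors, in which each variance is drawn towards that of all kept probe sets. For genes with widely spaced replicates such an error is smaller than the arrays of that gene alone would give. Intervals are 95% intervals of the moderated statistic. Named outside the 9 genes are up to 4 genes of each follicle or partner list farthest from 0 by that statistic, and the 3 genes nearest in pattern to each member with a range of at least 0.5; lists of other cells are given by their counts and sums, with a few genes named. Krt17, Krt79, Shh and Gli1 fall outside that rule. The 9 genes and the lists were chosen with earlier results of these data known. Alternatives were other filters, normalizations, variance priors and probe set summaries, a block for the replicate number, and each array left out in turn.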

Additional observations from a re-analysis of the deposited data

How the results depend on the processing

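Of the 9 genes, 8 were tested as reported, 9 with no filter on low values and 7 with the filter at the 60th percentile. Under the alternatives that kept every array, 0 passed the test. Over all probe sets the count past the threshold was 126 under eBayes with trend and robust, ranged from 0 to 6 when 1 array was left out (6 without induced replicate 2), and was 0 under the others. The count of genes whose groups did not overlap, 2 as reported, was 1 with the mean of a gene's kept probe sets and ranged from 3 to 7 when 1 array was left out, where a lone array separates more easily (7 of 8 genes with induced replicate 1 left out, and 7 with induced replicate 2 left out). The median difference, 0.10 as reported, ranged from -0.24 (without induced replicate 2) to 0.31 (without induced replicate 1). With 1 array left out the difference ranged from -0.54 to 1.01 for Lhx2, -0.69 to 0.70 for Lgr5, -0.19 to 0.23 for Lrig1 and -0.29 to 0.19 for Nfatc1, each of which turned sign, and Lgr5 was -0.0151 after a second quantile normalization. Sox9, Tbx1, Tcf7l1 and Lgr6 kept their sign under every alternative. With the replicate number as a block the count was 0 of 27022 probe sets and 0 of the 8 genes, with a median difference of 0.10. Deviations of same-numbered arrays correlated at -0.10, which with 2 arrays per group cannot decide whether the numbers pair them. With the pairs crossed, a fit added after the data were seen, the counts were also 0. Signal limits what Cd34 and the dim probe sets of Sox9 and Lgr5 can show.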
